A study of Homo sapiens with 8 samples.

Results

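The genes described here are 44 genes of interferon signalling and of antigen presentation by MHC class I, followed in LNCaP-FGC cells, a human prostate carcinoma line that depends on androgen. They were taken from a list of gene symbols of the interferon pathway and the class I pathway. The list names genes by pathway and applies no cut on measured values, but it was chosen with earlier results of these data known. All 44 were found among the 19431 genes of the table, and all 44 passed the filter on low values that left 11874 genes for testing. The cells received, over 24 h, the solvent DMSO alone, I-CBP112 (which occupies the bromodomain of the coactivators p300 and CBP, the module that reads acetylated lysine), A-485 (which blocks the acetyltransferase site of the same proteins), or both compounds. Each of the 4 groups held 2 libraries of total RNA, numbered 1 and 2. All groups are the same cell line, with no genetic change between them, and no source used here gives the doses. Whether the libraries of a group came from separate cultures is not stated in the labels, so p-values measure only the spread between samples, and that spread may be technical.

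Interferons bind receptor pairs at the cell surface, IFNAR1 with IFNAR2 for type I and IFNGR1 with IFNGR2 for type II. The kinases JAK1 and TYK2 then phosphorylate STAT proteins. STAT2 and IRF9 take part in the complex ISGF3, which binds the interferon-stimulated response element (ISRE) in the promoters of induced genes, while the gamma-activated site (GAS) is bound by dimers of STAT proteins. Among the induced genes are antiviral effectors and the machinery that shows peptides to T cells: immunoproteasome subunits cut proteins into peptides, the transporter TAP1-TAP2 carries these into the endoplasmic reticulum, tapasin (TAPBP) helps to load them, and HLA heavy chains with B2M present them. LNCaP cells are known for a loss of JAK1 and a poor response to interferon. p300 and CBP are coactivators of many transcription factors, STAT and IRF proteins among them.

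Some promoters of the members that changed hold an ISRE or GAS core, and 7 such stretches are shown so that the letters can be set beside the direction of each gene. STAT2 and PSMB9, which were higher, hold neither in the window. The sequences are RefSeq promoters of GRCh38.p14 (250 bases before to 50 after the gene's start), read 5′ to 3′ on the gene's strand, with 15 bases on either side of the first and last match where the promoter up to its start site allowed. Capitals mark matches to the ISRE core (GAAA, any 2 bases, GAAA) or, in IRF9, to the GAS core TTCNNNGAA. Both were searched on both strands, and on the opposite strand the ISRE core reads TTTC, any 2 bases, TTTC. The first 4 genes were higher after treatment and the last 3 lower.
IFI6 (chr1:27672261-27672363, minus strand): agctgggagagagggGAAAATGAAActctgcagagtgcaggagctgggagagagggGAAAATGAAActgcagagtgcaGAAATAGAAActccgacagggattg
IFIT1 (chr10:89392492-89392544, plus strand): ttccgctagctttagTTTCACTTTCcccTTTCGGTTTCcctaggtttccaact
IRF9 (chr14:24161187-24161225, plus strand): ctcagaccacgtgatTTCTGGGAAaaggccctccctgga
TAPBP (chr6:33314079-33314113, minus strand): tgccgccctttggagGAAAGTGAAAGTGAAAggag
ISG20 (chr15:88638932-88638971, plus strand): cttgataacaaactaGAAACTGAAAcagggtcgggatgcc
PSMB10 (chr16:67936851-67936886, minus strand): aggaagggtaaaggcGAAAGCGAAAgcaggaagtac
TAP2 (chr6:32838773-32838812, minus strand): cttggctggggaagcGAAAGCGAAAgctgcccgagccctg

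Of the 44 members, 35 were matched to a promoter, DDX58 through its newer symbol. IFNAR2, IRF2, IRF3, IRF7, IFIT2, UBA7, PML, HLA-E and NLRC5 were not matched. The ISRE core was present in 19 of the 35 (54.29%), against 4.38% of the 27305 genes with a promoter in the table. The GAS core was present in 9 of the 35, against 9.38% of all genes. By role, the ISRE core was found in 9 of 11 induced effectors and in 3 of 3 peptide loading genes, and in 0 of 3 receptor genes and 0 of 4 genes of the kinases and ISGF3. Of the members called higher in a comparison with DMSO, 3 of the 6 with a promoter held it (IFI6, IFIT1 and TAPBP), and 3 of the 3 called lower held it (ISG20, PSMB10 and TAP2). PSMB10 and TAP2, which were lower, share the core GAAAGCGAAA. In TAPBP the 2 matches overlap, and IFI6 has 3 matches. A match is a stretch of letters and no evidence that a factor binds there.

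**Figure D1:**
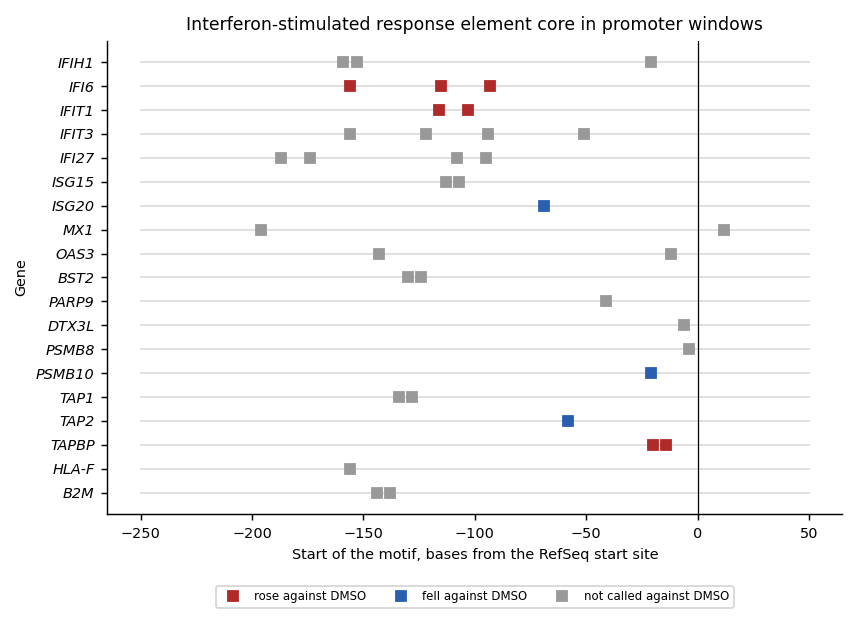
Positions of the ISRE core in RefSeq promoters of the 19 members that hold it, with distance in bases from the gene's start on the x axis and genes on the y axis. Each mark is the start of 1 match, and colours give the gene's direction in the comparisons with DMSO. Genes with several start sites have a mark for each start. All 3 genes called lower have a match within 100 bases of the start. So do IFI6 and TAPBP, which were called higher, and genes without a call such as DTX3L and PSMB8.

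The values are FPKM, in which fragments are divided by transcript length and library size, summed over the transcripts of a gene and scaled between libraries. Since the unit is set per length, levels can be read between genes. The fragments on the matched transcripts were estimated at 15.9 to 28.1 M (M for 1e+06) in the replicate 1 libraries and 4.44 to 13.5 M in those of replicate 2. The library sizes used in the FPKM, estimated in the same way, were 17.1 to 31.0 M and 15.8 to 27.3 M. The replicate 2 libraries thus had fewer fragments on these transcripts at overlapping library sizes. Taking for each member the library with its fewest fragments, 6 members had under 10 there (BST2, DDX58, IFI27, NLRC5, PSMB8 and PSMB9) and 19 had at least 100, so the values of the former are the least precise. On the values as deposited the median gene lay above DMSO, by 0.051 (log2) after I-CBP112, 0.366 after A-485 and 0.608 after both compounds. After scaling it lay within 0.05 of 0, and changes are given relative to it. All 9 luminal prostate markers were present, with KLK3 at 1998 to 2245 scaled FPKM in the DMSO libraries. Of 11 blood and immune cell markers, 7 were at 0 in all 8 libraries, PTPRC among them, and CD68 was the only one to reach 1. In bulk RNA a smaller number of cells and less RNA per cell cannot be told apart.

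No interferon gene reached the level needed for testing. Of 9 genes for type I, II and III interferons, 6 were listed at 0 in all 8 libraries, and the highest value was 0.20 scaled FPKM, in IFNL3. The 3 members with the highest mean level were HLA-C, ISG15 and B2M. ISG15, the ubiquitin-like modifier of the interferon response, stood at 220 and 204 scaled FPKM in the DMSO libraries, 157 and 175 with I-CBP112, 285 and 205 with A-485, and 222 and 233 with both. Of the 8 receptor, kinase and ISGF3 members JAK1 was the lowest, at 0.48 and 0.68 in DMSO. The solvent-treated cells thus held abundant RNA of some induced and class I genes beside little of JAK1.

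**Figure D2:**
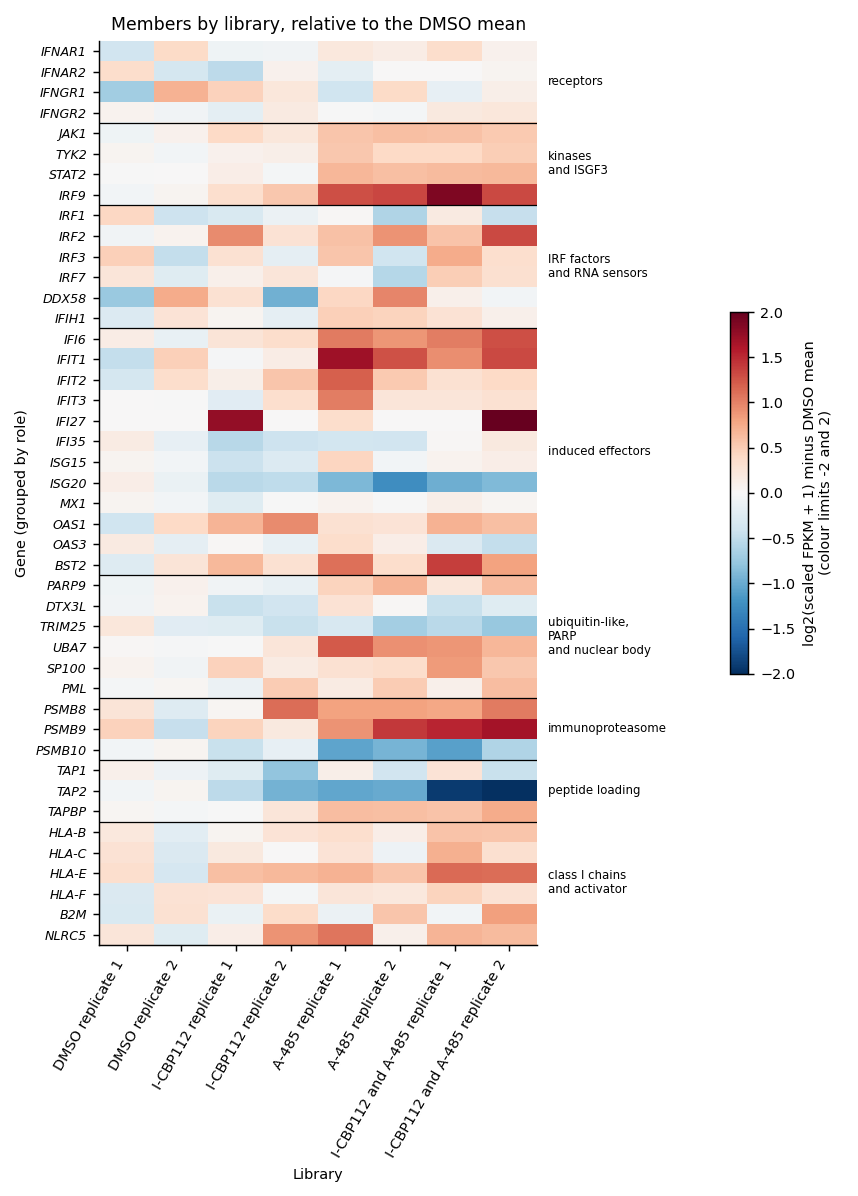
Levels of the 44 members in the 8 libraries, shown as log2(scaled FPKM + 1) of each library minus the mean of the DMSO libraries, with genes in rows by role and libraries in columns by group. The colour scale ends at -2 and 2, and in replicate 2 of the combination IFI27 lies above it and TAP2 below it. IRF9, IFI6 and HLA-E are above the DMSO mean in both libraries treated with both compounds, and TAP2 is below it in all 6 treated libraries.

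A first question was what each inhibitor did to these genes against DMSO. The 3 comparisons share the DMSO libraries and are not independent. Tests used limma on log2(scaled FPKM + 1), with Benjamini-Hochberg adjustment over 11874 genes and a threshold of 0.05. The main fit did not pair libraries by replicate number, and results with replicate pairing are given as an alternative. Standard errors follow the ± sign, and with the added 1 the change of a gene at a low level is understated. Scaling matters for all calls: on the values as deposited, without it, 0 of the 43 members then tested passed in any comparison, as did 0 of all genes (limma). The deposited FPKM of replicates 1 and 2 summed to 808443 and 187776 in DMSO and 728120 and 181486 with I-CBP112. The sums were 696917 and 269868 with A-485, and 766588 and 408673 with both. Without scaling, these gaps within groups are part of the spread between replicates. On the deposited values, where the median gene is shifted upward, the log2 fold changes with both compounds were -0.10 for PSMB10, -0.21 for ISG20 and -1.19 for TAP2, and 1.20 for STAT2, 1.32 for TAPBP and 1.83 for IFI6. With A-485 alone they were -0.50 for PSMB10, -0.57 for ISG20 and -0.52 for TAP2.

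With I-CBP112 alone, 0 of 44 members passed, against 0% of all genes tested (limma). At an unadjusted p under 0.05 there were 5 members, IFI35, ISG20 and TAP2 with lower and OAS1 and HLA-E with higher values. Of all 11874 genes, 1319 were under that p. The median log2 fold change was 0.10 for the members and 0.01 for all genes, with 27 of 44 members above 0. Both I-CBP112 libraries lay above both DMSO libraries in 9 members and below them in 8, against 18.7% of all genes in either direction. The widest fitted differences among the 5 were those of OAS1 and TAP2. OAS1 was at 0.81 ± 0.27 (limma, adjusted p = 0.363) and TAP2 at -0.74 ± 0.19 (limma, adjusted p = 0.321). An OAS1 transcript of 324 bases held 60.18% of the gene's deposited FPKM with I-CBP112, against 1.415e-07% in DMSO. The OAS1 difference lay in this short transcript, and the other transcripts of the gene showed no joint rise.

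With A-485 alone, 7 of 44 members passed, against 4.44% of all genes. Higher were IRF9, IFI6, IFIT1 and UBA7 (4 of 44, against 1.25% of all genes), and lower were ISG20, PSMB10 and TAP2 (3 of 44, against 3.18%). The median log2 fold change was 0.27 for the members and 0.01 for all genes, and 33 of 44 members were above 0. Both A-485 libraries lay above both DMSO libraries in 19 members and below them in 5, where 26.6% and 26% of all genes did so. Pairing the libraries by replicate number raised the count to 10 members, with STAT2 and TAPBP added among the higher and TRIM25 among the lower, against 13.6% of all genes in that fit. Where the libraries were scaled to the same total only, which leaves the median gene at 0.306, 8 members were called higher and 0 lower, against 3.18% and 1.35% of all genes in that fit. Leaving out 1 library at a time gave 0 to 5 calls, with 0 when DMSO replicate 1 or either A-485 library was left out, where 0.92%, 0.678% and 0.153% of all genes were called.

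With both compounds, 9 of 44 members passed, against 10.5% of all genes. Higher were STAT2, IRF9, IFI6, PSMB9, TAPBP and HLA-E (6 of 44, against 3.44% of all genes). ISG20, PSMB10 and TAP2 were lower, as with A-485 alone (3 of 44, against 7.09%). The median log2 fold change was 0.40 for the members and 0.04 for all genes, with 35 of 44 members above 0. Both libraries lay above both DMSO libraries in 25 members and below them in 6, where 28.9% and 26.5% of all genes did so. With replicate pairing the count was 15 members, with TYK2, IFIT1, UBA7, SP100 and HLA-C added among the higher and TRIM25 among the lower, against 20% of all genes. With scaling to the same total only, where the median gene was at 0.252, the split was 10 higher and 1 lower, against 6.19% and 4.11% of all genes in that fit. Without replicate 1 or replicate 2 of the combination 3 and 2 members were called, against 2.29% and 2.52% of all genes, and without DMSO replicate 1 there were 5, against 6.93%.

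**Figure D3:**
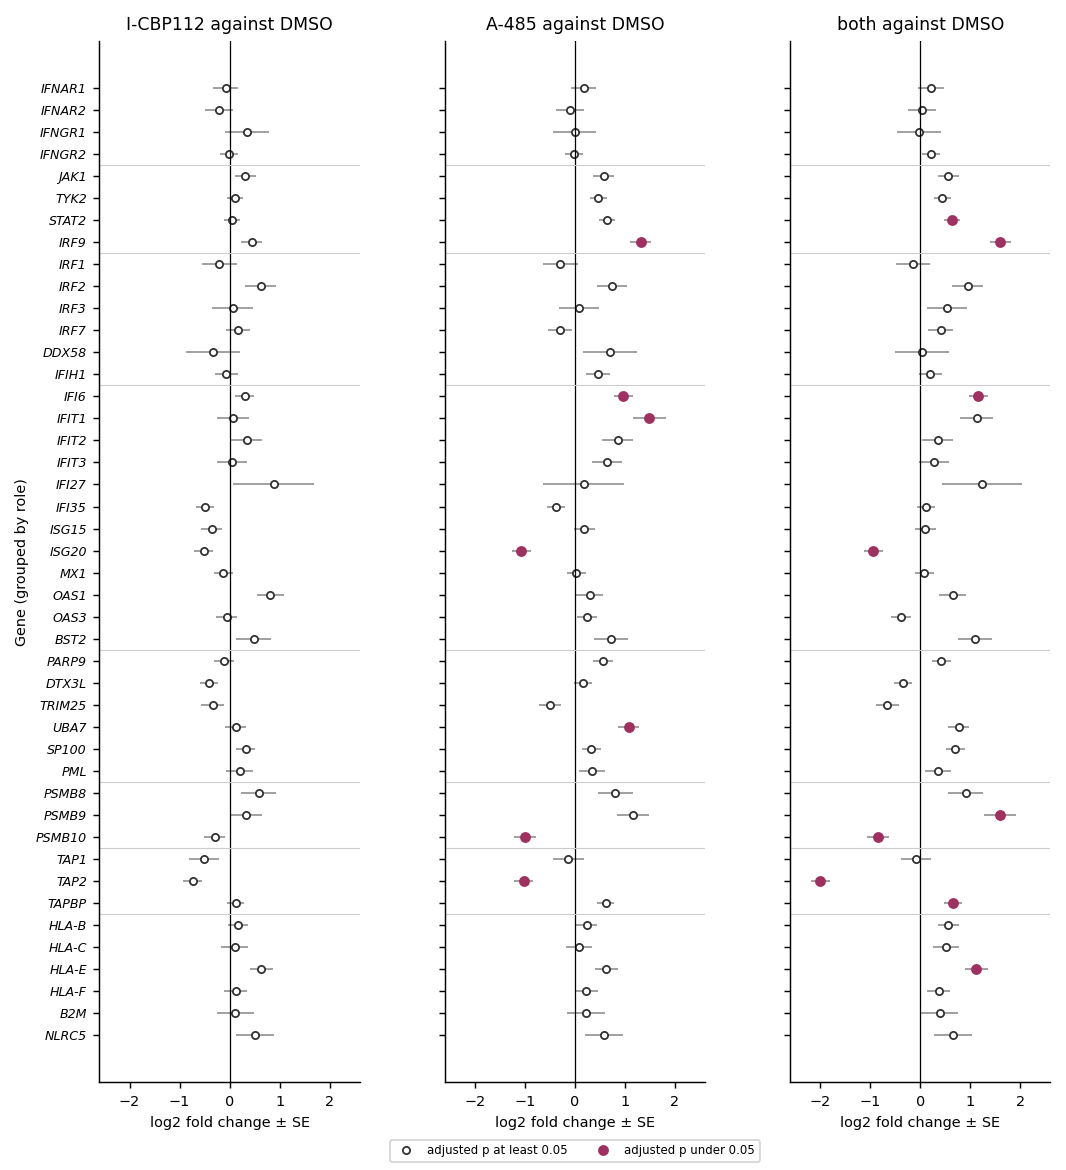
Log2 fold changes of the 44 members against DMSO, with genes on the y axis by role and the log2 fold change on the x axis, for I-CBP112, A-485 and both compounds. Bars are 1 standard error of the limma fit to either side, and filled points passed at an adjusted p of 0.05. No point is filled with I-CBP112, 7 are with A-485 and 9 with both compounds.

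At the receptors, none of the 4 genes passed in any comparison (limma), and none reached an unadjusted p under 0.05 or passed with replicate pairing. In the main fit 4.44% of all genes were called with A-485 and 10.5% with both compounds. IFNAR1, the signalling chain of the type I receptor, stood at 8.82 and 15.8 scaled FPKM in DMSO, 11.1 and 11.2 with I-CBP112, 13.8 and 13.2 with A-485, and 15.4 and 12.6 with both. IFNAR2, its ligand-binding partner, stood at 12.7 and 7.48, then 6.51 and 10.4, then 8.4 and 9.83, then 9.87 and 10.2, in the same order of groups. In both genes the DMSO libraries were farther apart than those of any treated group, and every treated group overlapped with them.

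IFNGR1, the ligand-binding chain for type II interferon, showed the widest spread of the receptors, at 5.04 and 14.8 scaled FPKM in DMSO, 12.5 and 10.4 with I-CBP112, 6.40 and 11.8 with A-485, and 7.73 and 9.61 with both. IFNGR2, its partner, was the most abundant receptor RNA, at 33.8 and 30.6 in DMSO, 27.8 and 36.7 with I-CBP112, 32.0 and 31.4 with A-485, and 37.0 and 37.6 with both. The IFNGR2 libraries treated with both compounds lay narrowly above the rest. With both compounds the 95% interval of the log2 fold change ran from -0.21 to 0.63 for IFNGR2 and from -1.03 to 0.98 for IFNGR1, and a change within these bounds was not detectable.

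Of the kinases and ISGF3 subunits, 1 of 4 members passed with A-485 and 2 of 4 with both compounds, all higher. Of all genes, 1.25% and 3.44% were called higher in these comparisons. The fold changes of all 4 members were positive with each treatment. Those of 6029, 5988 and 6332 of all 11874 genes were positive with I-CBP112, A-485 and both. JAK1, the kinase shared by the receptor types, passed in no comparison (limma) and stood at 0.48 and 0.68 scaled FPKM in DMSO, 1.07 and 0.86 with I-CBP112, 1.31 and 1.39 with A-485, and 1.38 and 1.28 with both. The treated libraries all lay above the DMSO libraries, and those with A-485 above those without it. Its log2 fold change was 0.57 ± 0.21 with A-485 (limma, adjusted p = 0.134) and 0.56 ± 0.21 with both (limma, adjusted p = 0.123).

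TYK2, the partner kinase of the type I receptor, averaged 44.1 scaled FPKM in DMSO and 47.4 with I-CBP112, against 61.4 with A-485 and 60.3 with both. Its fold change with both compounds, 0.44 ± 0.17, missed the threshold (limma, adjusted p = 0.127) and passed with replicate pairing (limma, adjusted p = 0.0484). STAT2, the activating subunit of ISGF3, stood at 12.4 and 12.6 in DMSO, 13.8 and 12.1 with I-CBP112, 20.4 and 19.5 with A-485, and 19.8 and 20.1 with both. Its levels thus formed a low pair of groups without A-485 and a high pair with it, and replicates were close in each. The fold change was 0.64 ± 0.16 with both compounds (limma, adjusted p = 0.0428) and the same in size with A-485, where it missed the threshold (limma, adjusted p = 0.0623) and passed with replicate pairing (limma, adjusted p = 0.0294). The STAT2 call with both compounds did not hold when any 1 of the 8 libraries was left out, with adjusted p from 0.0639 to 0.201 (limma).

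IRF9, the DNA-binding subunit of ISGF3, had the largest fitted log2 fold change of any member with both compounds, at 1.60 against 1.59 for PSMB9. That gap is well within the standard errors. The added 1 understates genes at low levels, so the order need not hold for ratios of levels. IRF9 stood at 5.82 and 6.44 scaled FPKM in DMSO, 8.0 and 9.35 with I-CBP112, 16.5 and 16.9 with A-485, and 25.1 and 16.9 with both. The groups without A-485 lay well below those with it, and the I-CBP112 libraries lay between DMSO and A-485. The log2 fold change was 1.31 ± 0.21 with A-485 (limma, adjusted p = 0.0183) and 1.60 ± 0.21 with both (limma, adjusted p = 0.00418). With both compounds the call held in 8 of 8 fits that left out 1 library. With A-485 it was lost without DMSO replicate 1 and without either A-485 library, with adjusted p up to 0.133 (limma). The long transcript IRF9-202, of 1838 bases, had a mean of 2.62 in DMSO, 8.15 with A-485 and 9.07 with both. A gene named AL136295.5 covers it on the same strand and is not listed in the table, so its reads cannot be told apart from those of IRF9.

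**Figure D4:**
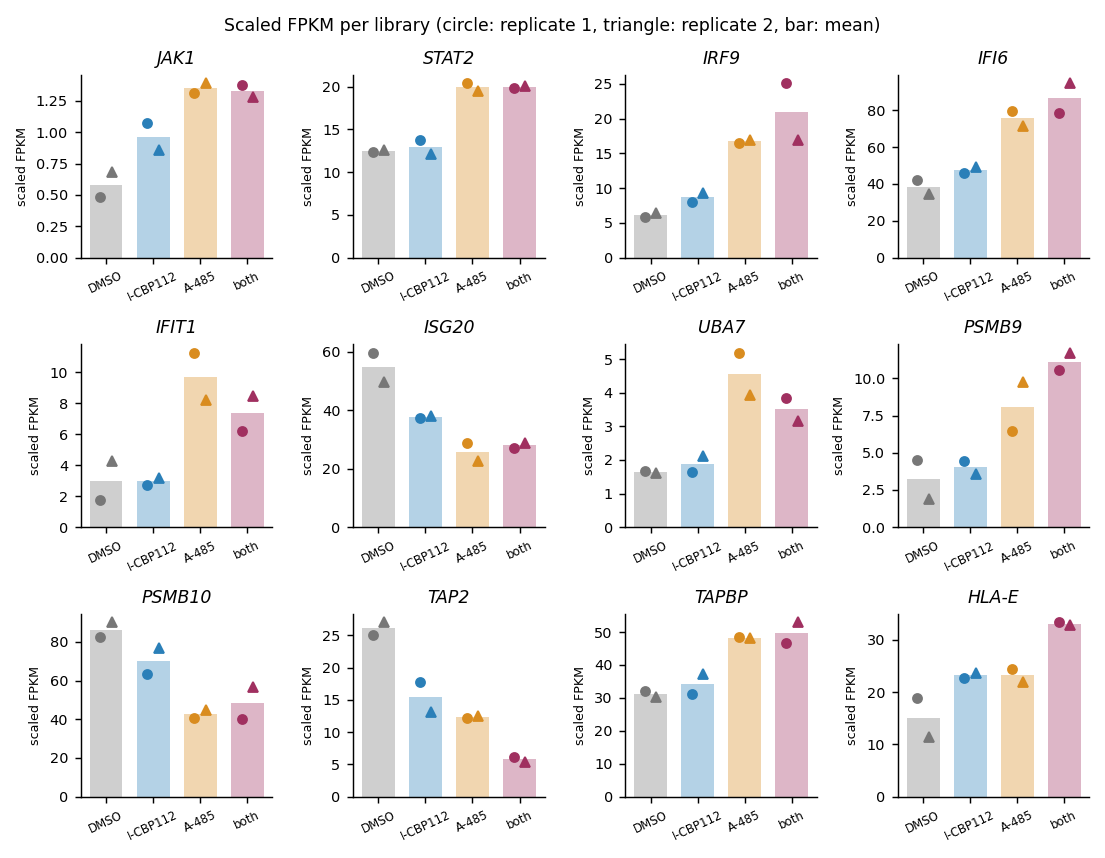
Scaled FPKM of JAK1 and of the 11 members that passed in a comparison with DMSO, 1 panel per gene, with groups on the x axis and scaled FPKM on a y axis from 0. Each point is 1 library, marked by replicate number, and the bar is the mean of the 2. STAT2 and IRF9 are higher in both groups with A-485, and TAP2 falls from 26.1 in DMSO to 5.79 with both compounds.

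Of the IRF factors and RNA sensors, 0 of 6 passed in any comparison (limma), with IRF2 below an unadjusted p of 0.05 with A-485 and with both, and IRF7 in the comparison of both with A-485. With replicate pairing the count was 0 as well. Over all genes the main fit called 4.44% with A-485 and 10.5% with both. IRF2, which occupies ISREs and can oppose IRF1, averaged 6.30 scaled FPKM in DMSO, against 10.5 with I-CBP112, 11.3 with A-485, and 13.5 for both. Every treated library lay above both DMSO libraries, and the fold change with both was 0.95 ± 0.30 (limma, adjusted p = 0.0875). IRF1, an activator of class I genes, averaged 4.70 in DMSO and between 3.58 and 4.08 in the treated groups, which overlapped with it.

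IRF3 and IRF7, which switch on interferon genes, gave no call. IRF3 averaged 53.3 scaled FPKM in DMSO and 74.3 with both compounds, but its replicates were far apart, at 70.9 and 35.7 in DMSO. IRF7 averaged 12.4 in DMSO, 9.95 with A-485 and 16.6 with both. The sensors of viral RNA were low: DDX58, which encodes RIG-I, ranged from 0.007 to 2.84 over the 8 libraries, and IFIH1, which encodes MDA5, from 1.76 to 3.62. The replicates of DDX58 were too far apart for any order of its groups to be read.

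Of the 12 induced effectors, 3 passed with A-485 (2 higher and 1 lower) and 2 with both compounds (1 higher and 1 lower). The shares of all genes called were 4.44% and 10.5%. IFI6, a mitochondrial protein of the interferon response, stood at 42.3 and 34.4 scaled FPKM in DMSO, 45.7 and 49.0 with I-CBP112, 79.7 and 71.5 with A-485, and 78.6 and 94.7 with both. Both groups with A-485 lay above both groups without it. Against DMSO the log2 fold change was 0.97 ± 0.19 with A-485 (limma, adjusted p = 0.0336) and 1.16 ± 0.19 with both (limma, adjusted p = 0.0098). With A-485 the call was lost in 8 of 8 fits without 1 library (limma, adjusted p 0.0559 to 0.161). With both compounds it was lost only without replicate 2 of that group (limma, adjusted p = 0.0856).

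IFIT1, which binds foreign RNA by its cap, stood at 1.73 and 4.27 scaled FPKM in DMSO, 2.74 and 3.18 with I-CBP112, 11.3 and 8.19 with A-485, and 6.23 and 8.48 with both. The libraries with A-485 all lay above those without it, and its log2 fold change with A-485 was 1.49 ± 0.32 (limma, adjusted p = 0.0445). This call was lost in 7 of the 8 fits without 1 library and held without DMSO replicate 2. With both compounds the fold change was 1.13 ± 0.32 (limma, adjusted p = 0.0632, and 0.0448 with replicate pairing). IFIT2 and IFIT3, its partners in the same complex, averaged 9.26 and 2.80 with A-485, against 4.68 and 1.36 in DMSO, and gave no call.

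ISG20, an exonuclease that degrades RNA, was the 1 effector called lower. It stood at 59.7 and 49.8 scaled FPKM in DMSO, 37.4 and 38.0 with I-CBP112, 28.8 and 22.5 with A-485, and 27.2 and 28.9 with both. All treated libraries lay below DMSO, and those with A-485 lay below those with I-CBP112 alone. The log2 fold change was -1.07 ± 0.19 with A-485 (limma, adjusted p = 0.0238) and -0.93 ± 0.19 with both (limma, adjusted p = 0.0204). Each call was lost when DMSO replicate 1 or either library of the treated group was left out, and with A-485 also without either library of the combined treatment (limma, adjusted p up to 0.177). Of its transcripts, those of 614, 800 and 1856 bases had lower means with A-485 and with both compounds, while the shortest, of 540 bases, went from 0.001 in DMSO to 5.23 with both.

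The other effectors gave no call (limma). MX1, a GTPase that traps viral particles, had means of 2.54 to 3.07 scaled FPKM in the 4 groups. OAS1 and OAS3, synthases of an oligoadenylate messenger in the antiviral response, averaged 2.58 and 6.48 in DMSO and 4.40 and 4.69 with both compounds. The OAS1 transcript of 324 bases held 40.76% of the gene's deposited FPKM with both compounds, and most of the OAS1 difference lay in it. BST2, or tetherin, averaged 0.42 in DMSO and 2.04 with both, on few fragments. ISG15 ranged from 157 to 285 over the 8 libraries with no order by A-485. IFI35 averaged 30.8 in DMSO and 33.2 with both compounds, but 21.6 and 23.4 with I-CBP112 or A-485 alone, and was the member with the largest positive interaction, 0.97 ± 0.25 (limma, adjusted p = 0.405). IFI27 was listed at or close to 0 in 5 of the 8 libraries and at 2.38, 0.27 and 4.53 in single libraries of I-CBP112, A-485 and both.

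Among the genes of ubiquitin-like modifiers, PARP proteins and nuclear bodies, UBA7 was the 1 of 6 members that passed. It did so with A-485, where 4.44% of all genes passed. With both compounds 0 of 6 passed, against 10.5% of all genes. UBA7 activates ISG15 for transfer to its targets, and stood at 1.67 and 1.60 scaled FPKM in DMSO, 1.63 and 2.11 with I-CBP112, 5.19 and 3.95 with A-485, and 3.85 and 3.16 with both. The groups without A-485 were alike in level and those with it were higher. Against DMSO the log2 fold change was 1.07 ± 0.21 with A-485 (limma, adjusted p = 0.0328) and 0.77 ± 0.21 with both (limma, adjusted p = 0.0544, and 0.0436 with replicate pairing). The call with A-485 was lost in 7 of 8 fits without 1 library and held without DMSO replicate 2.

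PARP9 and its partner ubiquitin ligase DTX3L, which are transcribed from opposite strands of the same locus, gave no call. PARP9 averaged 13.6 scaled FPKM in DMSO, 20.7 with A-485 and 18.7 with both, and DTX3L averaged 10.8, 12.2 and 8.34. TRIM25, the ubiquitin ligase that activates RIG-I, averaged 40.5 in DMSO and 25.1 with both, and between these with I-CBP112 (31.5) or A-485 (28.2). Its fold change with both was -0.65 ± 0.22 (limma, adjusted p = 0.103, and 0.0172 with replicate pairing). SP100 and PML, proteins of nuclear bodies, averaged 8.06 and 13.8 in DMSO and 13.8 and 18.2 with both. SP100 passed with both compounds when replicates were paired (limma, adjusted p = 0.0252).

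Of the 3 immunoproteasome subunits, 1 was higher and 1 lower with both compounds, against 3.44% and 7.09% of all genes. PSMB9, a catalytic subunit that interferon induces, stood at 4.54 and 1.91 scaled FPKM in DMSO, 4.45 and 3.60 with I-CBP112, 6.47 and 9.74 with A-485, and 10.5 and 11.7 with both. The order of the group means was DMSO, I-CBP112, A-485 and both, although DMSO and I-CBP112 overlapped. The log2 fold change with both was 1.59 ± 0.32 (limma, adjusted p = 0.0203) and was lost without either library of that group. The shorter transcript PSMB9-209, of 439 bases, went from 0.196 in DMSO to 4.21, and the transcript of 782 bases from 3.02 to 6.92. On transcripts of at least 500 bases alone the fold change was 1.07. PSMB8, its neighbour, overlaps it by 139 bases on the opposite strand, and no source used here says whether reads were counted by strand. PSMB8 averaged 1.43 in DMSO and 3.51 with both, without a call.

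PSMB10, the third catalytic subunit, was far more abundant and fell. It stood at 82.5 and 90.1 scaled FPKM in DMSO, 63.3 and 76.9 with I-CBP112, 40.8 and 44.7 with A-485, and 40.2 and 56.6 with both. The libraries with A-485 all lay below those without it. The log2 fold change was -1.0 ± 0.21 with A-485 (limma, adjusted p = 0.0422) and -0.84 ± 0.21 with both (limma, adjusted p = 0.0453), and either call was lost in 8 of 8 fits without 1 library. The difference lay in PSMB10-204, a transcript of 539 bases, which averaged 69.6 in DMSO, 28.3 with A-485 and 31.6 with both. PSMB10-201, of 1218 bases, averaged 16.7, 14.4 and 16.7 in the same groups. AC040162.1 overlaps PSMB10 on the same strand and is not listed in the table.

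In peptide loading, TAP2 and TAPBP passed, in opposite directions, and TAP1 gave no call. With both compounds that made 2 of 3 members, against 10.5% of all genes. The fall of TAP2 with both compounds was the largest of any member. It stood at 25.1 and 27.0 scaled FPKM in DMSO, 17.8 and 13.1 with I-CBP112, 12.2 and 12.5 with A-485, and 6.18 and 5.40 with both. No group overlapped another. Against DMSO the log2 fold change was -1.02 ± 0.19 with A-485 (limma, adjusted p = 0.0288) and -2.0 ± 0.19 with both (limma, adjusted p = 0.00109), and the latter held in 8 of 8 fits without 1 library. The A-485 call was lost without DMSO replicate 1 or either library of A-485 or of both compounds (limma, adjusted p up to 0.169). Both transcripts fell, TAP2-202 from a mean of 17.0 in DMSO to 2.87 with both compounds and TAP2-201 from 9.13 to 2.92.

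TAP1, the partner subunit, averaged 18.0 scaled FPKM in DMSO and 17.3 with both, against 12.5 with I-CBP112 and 16.6 with A-485. Its fold change with both was -0.09 ± 0.30 (limma, adjusted p = 0.876), with a 95% interval of -0.79 to 0.61. TAPBP, which encodes tapasin, stood at 32.1 and 30.3 in DMSO, 31.1 and 37.1 with I-CBP112, 48.5 and 48.0 with A-485, and 46.7 and 52.9 with both. Its libraries with A-485 lay above those without, and the fold change was 0.66 ± 0.17 with both (limma, adjusted p = 0.0493) and 0.61 ± 0.17 with A-485 (limma, adjusted p = 0.0815, and 0.0333 with replicate pairing). The call with both compounds was lost in 8 of 8 fits without 1 library.

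**Figure D5:**
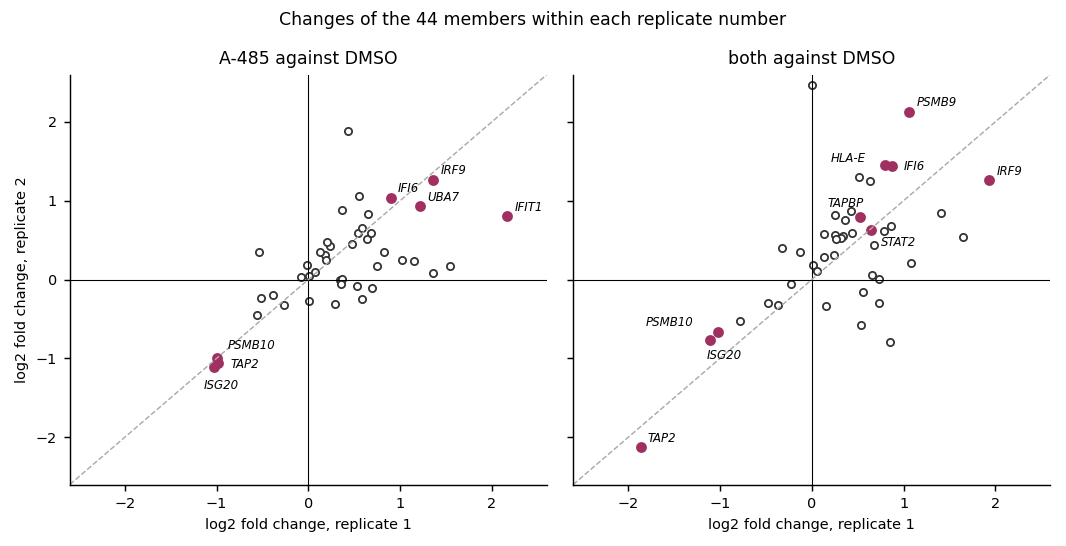
Log2 fold change of the 44 members against DMSO in replicate 1 (x axis) and replicate 2 (y axis), for A-485 and for both compounds. Each point is 1 member, filled and named where it passed, and the dashed line marks equal change. ISG20, PSMB10 and TAP2 lie near the line below 0, and IFIT1, with A-485, lies far from it.

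The class I chains and the activator NLRC5 had positive fold changes in 6 of 6 members with each treatment. Of all 11874 genes, 6029, 5988 and 6332 had positive fold changes with I-CBP112, A-485 and both. With both compounds 1 of the 6 passed, against 10.5% of all genes. With I-CBP112 alone 0 passed, against 0%, and with A-485 alone 0, against 4.44%. HLA-E, which presents leader peptides of other class I chains to natural killer cells, stood at 18.8 and 11.4 scaled FPKM in DMSO, 22.7 and 23.7 with I-CBP112, 24.5 and 21.9 with A-485, and 33.4 and 32.9 with both. The single treatments lay above DMSO and the combination above all other libraries. The log2 fold change was 1.12 ± 0.23 with both (limma, adjusted p = 0.0220), and the call was lost without either library of that group.

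HLA-C was the most abundant member, at 336 and 227 scaled FPKM in DMSO, 317 and 276 with I-CBP112, 333 and 257 with A-485, and 455 and 343 with both. B2M, the light chain, stood at 99.2 and 152 in DMSO, 111.97 and 159 with I-CBP112, 114 and 180 with A-485, and 119 and 218 with both. In B2M replicate 2 was higher than replicate 1 in each group, so that the groups overlapped. The fold change of HLA-C with both compounds was 0.52 ± 0.26 (limma, adjusted p = 0.248, and 0.040 with replicate pairing).

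HLA-B averaged 102 scaled FPKM in DMSO and 149 with both, and HLA-F averaged 6.05 and 7.94, neither with a call. The HLA genes are near-identical copies in parts, and how reads were shared between them is not given, so their values are uncertain. NLRC5, which activates class I promoters, averaged 1.25 in DMSO and 2.49 with both, on few fragments.

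A further question was whether the combination differed from each compound. Against I-CBP112 alone, 2 of 44 members passed with both compounds, against 2.24% of all genes, 1 higher (against 0.278%) and 1 lower (against 1.96%). IRF9 was higher by 1.16 ± 0.21 (limma, adjusted p = 0.0363) and TAP2 lower, at -1.26 ± 0.19 (limma, adjusted p = 0.0178). The count was 0 without I-CBP112 replicate 1 or either library of the combination, where 0.592%, 0.356% and 0.533% of all genes were called. The IRF9 call was also lost without I-CBP112 replicate 2 or either A-485 library (limma, adjusted p up to 0.258). With replicate pairing IFI6 was called as well, which made 3, against 5.76% of all genes (limma, adjusted p = 0.0334).

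Against A-485 alone, 0 of 44 members passed with both compounds, against 0.817% of all genes (limma), and 0 with replicate pairing, against 1.34%. At an unadjusted p under 0.05 there were 5: IRF7 and IFI35 with higher and OAS3, DTX3L and TAP2 with lower values. Of all 11874 genes, 1443 were under that p. For TAP2 the fold change was -0.98 ± 0.19 (limma, adjusted p = 0.0853), with a 95% interval of -1.42 to -0.54. For IRF9 it was 0.29 ± 0.21, with an interval of -0.21 to 0.78. For STAT2 it was 0.00 ± 0.16, with an interval of -0.37 to 0.37, and a difference within these bounds was not detectable.

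Between the single compounds, 0 of 44 members passed for A-485 against I-CBP112, against 0.859% of all genes (limma), and 0 with replicate pairing, against 2.64%. At an unadjusted p under 0.05 there were 12 members, against 1699 of all 11874 genes. Of the 12, IFIT1 had the largest difference, 1.42 ± 0.32 (limma, adjusted p = 0.0998). The interaction, the part of the combined log2 change that the sum of the single changes leaves over, passed in 0 of 44 members, against 0% of all genes (limma). At an unadjusted p under 0.05 there were 2 members, IFI35 and ISG20, against 1061 of all 11874 genes. With replicate pairing 0 members passed, against 0.0842% of all genes.

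Of the other genes of the pathway, 96 were listed and 65 reached the level for testing. In the 3 comparisons with DMSO, 0 were called higher and 2 genes were called lower (limma). The calls were 1 of 65 with A-485 and 2 of 65 with both, against 4.44% and 10.5% of all genes. CD274, which encodes the checkpoint ligand PD-L1 and is induced by interferon, stood at 5.36 and 5.43 scaled FPKM in DMSO, 4.99 and 5.75 with I-CBP112, 2.13 and 1.84 with A-485, and 0.86 and 0.77 with both. DMSO and I-CBP112 overlapped in range, A-485 lay below them and the combination was lowest. Against DMSO the log2 fold change was -1.10 ± 0.19 with A-485 (limma, adjusted p = 0.0204) and -1.82 ± 0.19 with both (limma, adjusted p = 0.00142). The call with both held in 8 of 8 fits without 1 library, and that with A-485 was lost in 4, without DMSO replicate 1, either A-485 library or replicate 1 of the combination. CANX, or calnexin, a chaperone of class I heavy chains, averaged 171 in DMSO and 102 with both, with I-CBP112 (132) and A-485 (115) between them, and its fold change with both was -0.75 ± 0.17 (limma, adjusted p = 0.0332). That call was lost in 7 of 8 fits without 1 library, held without DMSO replicate 2, and on unscaled values the fold change was near 0. The median log2 fold change of the 65 was 0.09 with A-485 and 0.11 with both. Pairing the replicates brought PIAS3, SAMHD1 and NMI with both compounds and TBK1 with A-485 past the threshold as higher, and TRIM14 with both and CANX with A-485 as lower.

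Markers of other cell types moved with the groups at low levels. The summed level of the immune markers, in which CD68 was the only one at 1 or more, ran from 1.45 to 2.01 scaled FPKM in DMSO and from 4.38 to 6.21 with both compounds, with PTPRC at 0 throughout. The summed stromal and endothelial markers ran from 5.96 to 7.07 in DMSO, 15.1 to 17.5 with A-485 and 10.7 to 13.1 with both. COL1A1 stood at 3.4 and 3.5 in DMSO, 9.3 and 9.9 with A-485, and 11.7 and 9.6 with both. VWF was higher with A-485 but lower with both, at 3.3 and 2.5 in DMSO, 7.8 and 4.7 with A-485, and 1.3 and 1.0 with both. The basal marker KRT5 reached 14.1 in I-CBP112 replicate 2, with TP63 at 0 throughout. The summed luminal markers ran from 4846 to 5857 in DMSO and from 1823 to 2465 with both. With both, 6 of the 9 were called lower (limma), against 7.09% of all genes, and 1 had a positive fold change. KLK3 went from 2245 and 1998 in DMSO to 51.5 and 50.6 with both. KRT8 stood at 1211 and 760 in DMSO and 1449 and 743 with both, and HOXB13 at 273 and 182, then 212 and 170. The part of all these markers in the changes of the members was not tested.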

How the data were processed

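Each library gave 1 column of a table of 81591 transcripts. The authors deposited it under the name of counts, but 78.3% of values were not whole and the low values of long transcripts came in steps that fell with length, so the deposited values were read as FPKM. Tools listed in the submitters' processing notes are Cufflinks, DESeq, DESeq2 and STAR, beside the builds GRCh37 and hg19, with no roles or versions. The count model planned first was therefore replaced by limma.

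Transcripts were matched by Ensembl identifier to GENCODE release 29, on GRCh38, for names, lengths and overlaps only. Of them 74209 (91.0%) matched, with 95.7 to 96.6% of the FPKM of a library. Sums over genes were brought to a common total of 1e+06, followed by trimmed-mean scaling of log ratios (30% of ratios and 5% of levels trimmed). Genes at 1 or more in at least 2 libraries entered limma 3.58.1 under R 4.3.3 (trended, robust, 4 groups, 4 residual degrees of freedom, pseudocount 1). Fragments were estimated from the step of low values in transcripts of at least 3000 bases, where 80 to 84.6% were whole within 0.1. The fit alone was run on simulated log values with independent normal noise. These held no differences in depth and no likeness of libraries with the same number, so the scaling and the pairing were not checked.

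The members and the lists were chosen with earlier results of these data known. All members are named. Values in each library are given for members called against DMSO, JAK1, the receptors and the 3 highest members, and other pathway genes are named where called against DMSO. Genes named at an unadjusted p under 0.05 and pathway genes named with replicate pairing were chosen after their values were seen. Some pathway genes are not reported here.

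The column labels of replicate 1 share 1 prefix across groups and those of replicate 2 another. Deviations of libraries with the same number correlated between groups at 0.145 to 0.425 over genes in all 6 pairs of groups. The numbers were therefore taken to pair the libraries in an alternative fit, the replicate block. The main fit was planned without a block and ignores this pairing. Alternatives were another pseudocount, no filter, other scalings, library weights, protein-coding transcripts, the replicate block, leaving out each library, and transcripts of at least 500 bases, the last chosen after seeing the data.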

Additional observations from a re-analysis of the deposited data

How the results depend on the processing

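The called members kept the sign of their fold changes under every alternative run, but not the size: without scaling PSMB10 and ISG20 with both compounds against DMSO came to -0.10 and -0.21. The number of calls depended on the setting, and the share of all genes called moved too. With the replicate block, which pairs libraries by number, the members called with both compounds against DMSO rose to 15 (20% of all genes), and the calls among other pathway genes rose from 3 to 11. Without scaling CANX, with both compounds against DMSO, reversed to 0.0014, and there were 0 calls for A-485, for both compounds against DMSO, for both against I-CBP112 and for other pathway genes, as over all genes. With scaling to a total only, 1 member was called for both against I-CBP112 (1.18% of all genes), and other pathway genes gave 5 calls. With no filter on low values the counts were 4 for A-485 (2.17% of all genes) and 1 for both against I-CBP112 (0.977%). With library weights they were 0 for A-485 (1.65%), 4 for both against I-CBP112 (4.89%), 1 for both against A-485 (1.83%) and 1 for A-485 against I-CBP112 (1.7%). With transcripts of at least 500 bases other pathway genes gave 5 calls. Leaving out 1 library at a time gave 0 to 5 calls for A-485 (0.153 to 11.4% of all genes), 2 to 8 for both against DMSO (2.29 to 10.6%), 0 to 3 for both against I-CBP112 (0.356 to 2.95%), 0 to 1 for A-485 against I-CBP112 (0.0507 to 0.931%) and 1 to 9 for other pathway genes. A left-out library leaves its group with 1, which is assumed to vary like the others. The cause of these changes was not tested. IRF9 and TAP2 with both compounds against DMSO were called in all 8 fits without 1 library. By their lowest library, BST2, DDX58, IFI27, NLRC5, PSMB8 and PSMB9 rest on the fewest fragments of the members, which limits their precision.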
